A study of Mus musculus with 4 samples.

Results

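The 8 genes described here code for chemokines, small secreted proteins that draw white blood cells into tissue: Cxcl1, Cxcl2, Cxcl5, Cxcl10, Cxcl12, Cxcl16, Ccl2 and Ccl7. They were taken by gene symbol from 45777 genes measured in primary mouse hepatocytes, after their values in these same libraries had been seen, so every level and difference of theirs is a description and none is tested. RNA was sequenced from 4 cultures with 1 library each: Dusp6 knockout (KO) cells, which lack a dual specificity phosphatase, given fatty acids, wild-type (WT) cells given fatty acids, KO cells left untreated and WT cells left untreated. The fatty acids were palmitic acid at 0.5 mM with oleic acid at 1 mM, added after 3 h of culture and kept for 24 h. All 4 cultures were of hepatocytes from liver, kept in medium with fetal bovine serum. The labels used here do not give the strain, age or number of the mice, the reach of the deletion, or any vehicle added to untreated cultures. With 1 library per group, a difference between libraries has no replicate check.

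Chemokines act on receptors of the G protein-coupled family, and the receptor decides which cell follows them. Cxcl1, Cxcl2 and Cxcl5 act on CXCR2 and draw neutrophils, while Ccl2 and Ccl7 act on CCR2 and draw monocytes. Cxcl10 acts on CXCR3 of activated T cells and natural killer cells, Cxcl16 is made as a membrane-bound ligand of CXCR6 on T and natural killer T cells, and Cxcl12 acts on CXCR4 and on the scavenging receptor ACKR3, so the set reaches beyond neutrophils and monocytes. In inflamed liver, hepatocytes, Kupffer cells (the liver's resident macrophages), endothelial cells and stellate cells can all make chemokines. Transcription of many of them depends on the factor NF-kappaB, and AU-rich elements in the 3′ untranslated region shorten the life of several of their mRNAs. Dusp6 codes for a phosphatase that inactivates the kinase ERK.

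Libraries held 85423156 to 97364292 reads. Levels are in FPKM (fragments mapped to a transcript, scaled to its length and to the library), and read ratios between libraries use reads scaled to the library total (CPM) with exact binomial 95% intervals. These intervals cover counting error only, and sequenced reads are not independent molecules. Dusp6 had 348 and 394 reads in the KO libraries with and without fatty acids, against 22333 and 11235 in the WT libraries. Hepatocyte markers were abundant, with albumin (Alb) at 4336, 3475, 4137 and 2460 FPKM in KO with fatty acids, WT with fatty acids, KO untreated and WT untreated. All 13 Kupffer cell and macrophage markers had reads in all 4 libraries, summing to 312, 334, 261 and 161 FPKM in the same order. The 9 neutrophil markers summed to 9.04, 9.47, 6.48 and 4.84 FPKM in that order, and 5, 2, 5 and 2 of them were at 0 reads. S100a8 and S100a9 alone reached 1 FPKM in any library, and the surface marker Ly6g was at 0 reads in all 4. Of 9 hepatocyte markers compared, 2 were lower in KO by 2-fold or more with and without fatty acids, Cps1 and Tat, enzymes of the urea cycle and of tyrosine breakdown. In bulk RNA, fewer cells of a type and less RNA per cell cannot be told apart.

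The promoter sequences of Cxcl1, Cxcl2, Cxcl10 and Cxcl12 are shown first. They come from RefSeq on GRCm38.p6, the build also called mm10, and run 5′ to 3′ on the gene's own strand, from 250 bases before the annotated start of the gene to 50 bases after it. Of the 8 genes, these 4 alone had an entry in the promoter table, and they are shown for that reason. Capitals mark matches to the NF-kappaB consensus, searched on both strands. Cxcl1 lies at chr5:90890995-90891294 (plus strand), Cxcl2 at chr5:90903649-90903948 (plus strand), Cxcl10 at chr5:92348840-92349139 (minus strand) and Cxcl12 at chr6:117168285-117168584 (plus strand), these being the coordinates of the windows printed.
Cxcl1: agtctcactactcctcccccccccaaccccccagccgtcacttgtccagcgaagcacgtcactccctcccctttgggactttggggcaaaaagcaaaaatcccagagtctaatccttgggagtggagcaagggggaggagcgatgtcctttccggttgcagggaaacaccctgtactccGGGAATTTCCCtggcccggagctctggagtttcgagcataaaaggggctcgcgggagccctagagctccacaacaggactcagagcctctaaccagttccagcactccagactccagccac
Cxcl2: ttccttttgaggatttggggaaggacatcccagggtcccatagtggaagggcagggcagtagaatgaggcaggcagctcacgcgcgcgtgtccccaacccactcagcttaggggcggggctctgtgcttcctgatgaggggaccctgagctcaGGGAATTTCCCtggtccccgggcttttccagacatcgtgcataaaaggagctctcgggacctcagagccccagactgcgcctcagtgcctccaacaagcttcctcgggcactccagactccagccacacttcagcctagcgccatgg
Cxcl10: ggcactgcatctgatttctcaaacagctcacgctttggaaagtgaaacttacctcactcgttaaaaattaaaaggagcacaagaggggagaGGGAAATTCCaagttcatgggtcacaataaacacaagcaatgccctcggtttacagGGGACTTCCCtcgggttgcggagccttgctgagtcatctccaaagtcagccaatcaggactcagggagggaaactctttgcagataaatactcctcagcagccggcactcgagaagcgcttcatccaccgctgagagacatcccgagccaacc
Cxcl12: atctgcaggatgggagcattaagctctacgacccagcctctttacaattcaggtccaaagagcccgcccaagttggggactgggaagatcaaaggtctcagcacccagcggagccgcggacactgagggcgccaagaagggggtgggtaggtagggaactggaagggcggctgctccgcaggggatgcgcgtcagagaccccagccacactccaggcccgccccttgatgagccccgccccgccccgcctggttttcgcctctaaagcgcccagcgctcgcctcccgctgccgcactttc

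Cxcl1 and Cxcl2 held the same 11 capital letters, GGGAATTTCCC, in which a match on each strand overlaps the other. They lay 71 to 61 bases before the start in Cxcl1 and 97 to 87 bases before it in Cxcl2. Cxcl10 held 2 matches, GGGAAATTCC at 159 to 150 bases and GGGACTTCCC at 103 to 94 bases before the start. Cxcl12 held none. A match was present in 4.51% of 32851 promoters of the same length. Cxcl10 also held a match to the AP-1 motif TGANTCA 74 to 68 bases before the start (7.81% of promoters) and one to the interferon-stimulated response element core 213 to 204 bases before it (3.44% of promoters). The GC box GGGCGG matched 5 times in Cxcl12, where a pair of matches shares 1 base, and once in Cxcl2, and 35.7% of promoters held it. No window held the C/EBP motif TTGCNNAA, which 10.8% of promoters held. These matches are letters only, and no binding was measured.

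The AU-rich core ATTTA was counted in the longest annotated 3′ untranslated region of each gene (GENCODE M21 on GRCm38), and the stretch of 30 bases with the most cores is shown for the pair of genes densest in it, with the cores in capitals.
Cxcl1: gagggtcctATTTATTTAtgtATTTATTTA
Cxcl2: tATTTATTTAtctatgtATTTATTTATTTA

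Cxcl1 held 7 cores in 592 bases, or 11.8 per kilobase. This density was reached by 0.578% of the 10210 genes with such a region and at least 1 FPKM in any library. Cxcl2 held 11 cores in 1494 bases, or 7.36 per kilobase, which 2.24% of these genes reached. Ccl7 had 4.60 and Cxcl5, too low in FPKM to be among these genes, 4.50 per kilobase. They were followed by Ccl2 at 3.64, Cxcl10 at 3.01 and Cxcl16 at 1.41. Cxcl12 had the lowest density, 0.77 per kilobase, against a median of 1.34 over all these genes.

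Of the 8 chemokines, 7 were highest in WT cells given fatty acids, among them Cxcl5 with 10 reads, and Cxcl12 was highest in the KO libraries. The share of all genes that were highest in WT cells given fatty acids was not counted, so nothing is read from this number. Cxcl1 and Cxcl2, the neutrophil attractants, varied most, with the highest library 79.2 times and 280.4 times the lowest in FPKM. Ccl7 followed at 20.4 times and Ccl2 at 12.2 times, while Cxcl10 (3.76 times), Cxcl12 (3.72 times) and Cxcl16 (2.10 times) varied far less. The KO libraries with and without fatty acids differed by at most 1.55-fold in CPM, for Cxcl1, among the 7 genes with reads in both.

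**Figure D1:**
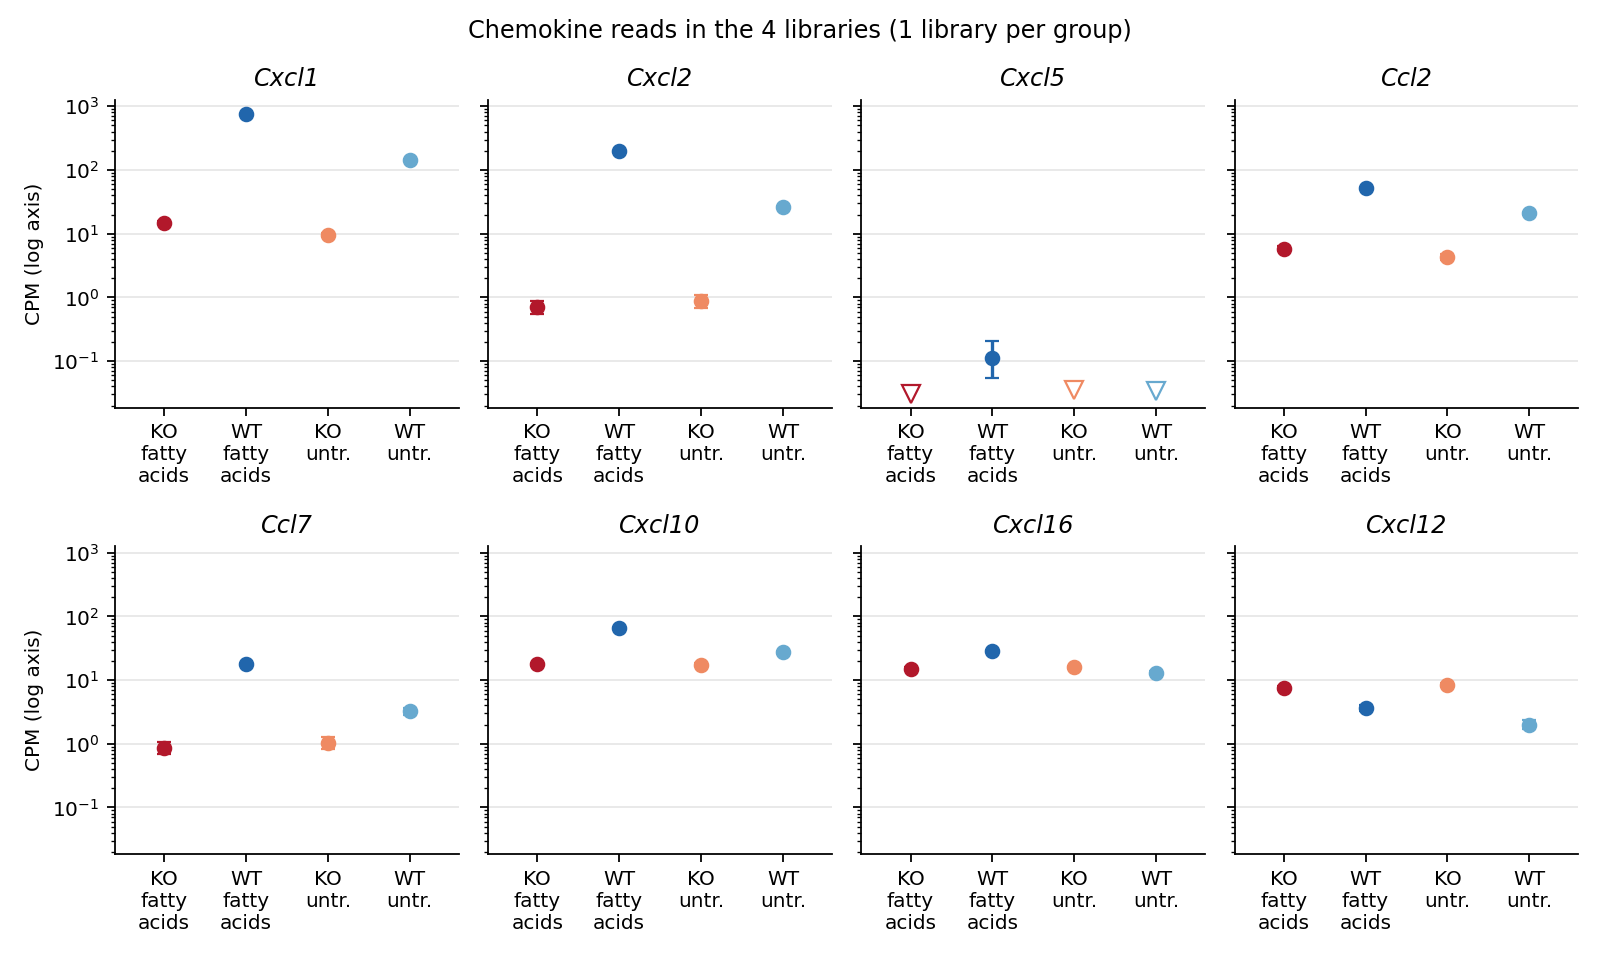
CPM (log axis) of the 8 chemokines in KO with fatty acids, WT with fatty acids, KO untreated and WT untreated, 1 library each, with Poisson 95% bars for counting error only; open triangles mark 0 reads and stand at the floor of 3 reads. WT cells with fatty acids hold the highest point in all panels but that of Cxcl12, and Cxcl5 has reads in that library alone (10 reads).

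Among the CXCR2 ligands, Cxcl1 is a main neutrophil attractant of injured liver. It had 13.6 FPKM in KO and 684 in WT cells given fatty acids, and 8.64 in KO and 135 in untreated WT cells. Its level was lower in KO than in WT both with and without fatty acids. In reads, KO was 51.0-fold lower than WT with fatty acids (interval 48.4 to 53.8) and 15.2-fold lower without them (14.1 to 16.3). Fatty acids went with a 5.21-fold higher level in WT (5.12 to 5.31) and a 1.55-fold higher level in KO (1.42 to 1.69). Cxcl1 thus stood higher with fatty acids in both genotypes, and the ratio was 3.36 times larger in WT.

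Cxcl2, the neutrophil attractant also known as macrophage inflammatory protein 2, was low in both KO libraries. It had 0.561 FPKM (68 reads) in KO and 157 FPKM (17632 reads) in WT cells given fatty acids, and 0.690 FPKM (75 reads) in KO and 21.7 FPKM (2314 reads) in untreated WT cells. KO was 283-fold lower than WT with fatty acids (interval 223 to 365) and 30.2-fold lower without them (24.0 to 38.5), the largest read ratios of the set. In WT the level was 7.47-fold higher with fatty acids (7.15 to 7.80). In KO the ratio of 0.796 had an interval of 0.564 to 1.12, so the KO libraries were not separated by counting error.

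Cxcl5, a CXCR2 ligand of epithelial cells, had 10 reads in WT cells given fatty acids and 0 in each of the other 3 libraries. It did not reach 1 FPKM in any library and enters none of the counts below. With a floor of 3 reads in place of 0, it was 3.64-fold lower in KO than in WT cells with fatty acids, and the exact lower limit was 2.45.

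The CCR2 ligands were also lower in KO than in WT. Ccl2, the main monocyte attractant, had 6.33 FPKM in KO and 56.0 in WT cells given fatty acids, and 4.60 in KO and 23.0 in untreated WT cells. The level was lower in KO than in WT both with and without fatty acids. KO was 8.97-fold lower with fatty acids (interval 8.22 to 9.80) and 4.85-fold lower without them (4.33 to 5.43). Fatty acids went with a 2.51-fold higher level in WT (2.38 to 2.65) and a 1.36-fold higher level in KO (1.19 to 1.55).

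Ccl7, a ligand of CCR2 and other CC receptors, had 0.941 FPKM in KO and 19.2 in WT cells given fatty acids, and 1.08 in KO and 3.58 in untreated WT cells. Its WT response of 5.51-fold (interval 4.85 to 6.28) was larger than that of its neighbour Ccl2. In KO the ratio was 0.857 (0.628 to 1.17), and the 85 and 87 reads of the KO libraries were not separated by counting error. KO was 20.5-fold lower than WT with fatty acids (16.5 to 25.8) and 3.18-fold lower without them (2.50 to 4.10).

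Cxcl10, the interferon-inducible ligand of CXCR3, was the most abundant of the 8 in both KO libraries. It had 13.9 FPKM in KO and 51.2 in WT cells given fatty acids, and 13.6 in KO and 21.8 in untreated WT cells. KO was 3.72-fold lower with fatty acids (interval 3.53 to 3.93) and 1.56-fold lower without them (1.46 to 1.67). In WT it was 2.41-fold higher with fatty acids (2.30 to 2.53), and in KO the ratio was 1.01 (0.942 to 1.08).

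Cxcl16, the membrane-bound ligand of CXCR6, was slightly higher in KO than in WT in untreated cells. It had 8.49 FPKM in KO and 15.8 in WT cells given fatty acids, and 8.70 in KO and 7.50 in untreated WT cells. The WT library with fatty acids stood apart, and the other 3 lay within a narrow range. KO was 1.90-fold lower with fatty acids (interval 1.78 to 2.03), while untreated KO was 1.22-fold higher (1.12 to 1.32). In WT the level was 2.18-fold higher with fatty acids (2.03 to 2.34), and in KO the ratio was 0.945 (0.877 to 1.02).

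Cxcl12, a constitutive chemokine of stromal and endothelial cells, ran the other way between the genotypes. It had 1.90 FPKM in KO and 0.890 in WT cells given fatty acids, and 1.98 in KO and 0.531 in untreated WT cells, and it passed the filter through the KO libraries alone. Its FPKM was higher in KO than in WT both with and without fatty acids. KO was 2.03-fold higher with fatty acids (interval 1.78 to 2.32) and 4.20-fold higher without them (3.56 to 4.99) in reads. In WT the level was 1.83-fold higher with fatty acids (1.52 to 2.21), the same direction as for the other chemokines. In KO the ratio was 0.886 (0.798 to 0.983). Relative to the median gene on log2(FPKM + 1), its KO minus WT values were 0.24 and 0.96, and the one with fatty acids turned to −0.08 at a pseudocount of 5. Sinusoidal endothelial markers summed to 14.7 FPKM in KO and 13.3 in WT cells with fatty acids, and to 21.3 in KO and 7.57 in untreated WT cells. Stellate cell and fibroblast markers summed to 2.28 and 0.593 FPKM in KO and WT with fatty acids, and to 2.09 and 0.369 in KO and WT untreated. None of 10 endothelial markers was at 0 in any library, and of 10 stellate cell and fibroblast markers 3, 6, 2 and 5 were at 0 in KO and WT with fatty acids and in KO and WT without them. Of the second list, the matrix gene Dcn alone reached 1 FPKM in any library. The part of either cell type in the level of Cxcl12 was not tested.

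To set the chemokines against other genes, log2(FPKM + 1) was compared between libraries relative to the median over 5903 well expressed genes, since the typical gene itself was shifted by 0.38 on the log2 scale in KO minus WT with fatty acids and by −0.26 in fatty acids minus untreated in WT. Of 45777 genes, 11927 reached 1 FPKM in at least 1 library, 7 of the 8 chemokines among them. A difference of 2-fold or more was counted. Each comparison shares a library with others, so they are not independent of each other.

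In KO minus WT with fatty acids, 6 of the 7 chemokines were 2-fold or more lower and none was higher, where 8.43% of all genes were lower and 3.12% higher. Cxcl2 (−7.04), Cxcl1 (−5.93), Ccl7 (−3.76) and Ccl2 (−3.34) ranked 3, 4, 10 and 18 from the lowest of 11927 genes. Cxcl10 was at −2.18 and Cxcl16 at −1.20. The set's median was −3.34, against −0.06 over all genes. In untreated cells 4 of 7 were lower, where 2.1% of all genes were lower and 3.55% higher. These were Cxcl1 (−3.82), Cxcl2 (−3.75), Ccl2 (−2.10) and Ccl7 (−1.14), with Cxcl10 at −0.65 and Cxcl16 at 0.19. Cxcl12, at 0.96, lay just short of 2-fold higher. It passed under several alternatives, among them TMM scaling, at 4 lower and 1 higher. With FPKM rescaled to an equal sum it passed too and Ccl7 dropped out, at 3 lower and 1 higher.

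In fatty acids minus untreated in WT, 6 of 7 chemokines were 2-fold or more higher, where 3.57% of all genes were higher and 0.654% lower. Cxcl2 (3.07), Cxcl1 (2.60) and Ccl7 (2.40) ranked 3, 9 and 12 from the highest, followed by Ccl2 (1.51), Cxcl10 (1.46), Cxcl16 (1.24) and Cxcl12 (0.57). In KO none of the 7 passed 2-fold in either direction, where 0.101% of all genes were higher and 5.05% lower. Their KO values lay between −0.28 (Cxcl2) and 0.44 (Cxcl1). The KO response was smaller than the WT response by 2-fold or more for 6 of 7 chemokines and for 10.7% of all genes, and it was larger by as much for none of the 7 and for 1.14% of all genes. The chemokines were chosen on these values, so nothing is read from their counts. Without the correction for the median gene, lower and higher calls over all genes changed to 498 and 1172 in KO minus WT with fatty acids, against 1006 and 372 with it. In the WT response they changed to 267 and 212, against 78 and 426, and in KO response minus WT response to 479 and 757, against 1273 and 136. In KO minus WT in untreated cells they were 250 and 423, and 134 and 960 after rescaling FPKM to an equal sum, which also gave 274 and 2900 in KO minus WT with fatty acids.

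**Figure D2:**
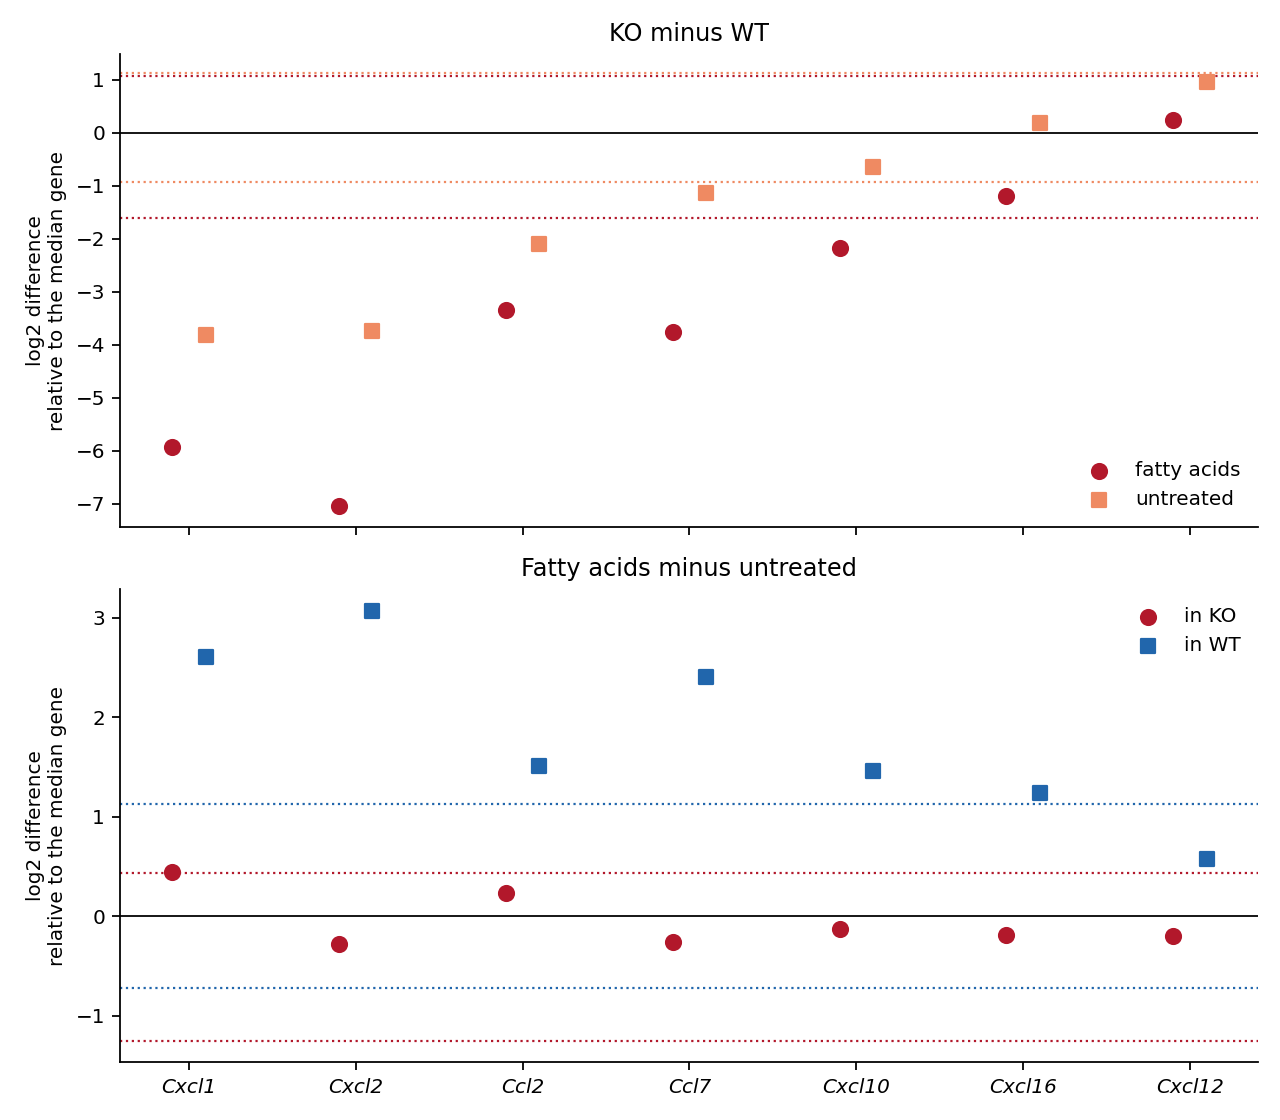
Differences of log2(FPKM + 1) relative to the median gene for the 7 chemokines compared, KO minus WT (top) and fatty acids minus untreated (bottom), from 1 library per group; dotted lines bound the central 95% of 11927 genes. Cxcl2 and Cxcl1 lie lowest in KO minus WT with fatty acids (−7.04 and −5.93), and the KO responses lie between −0.28 and 0.44.

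**Figure D3:**
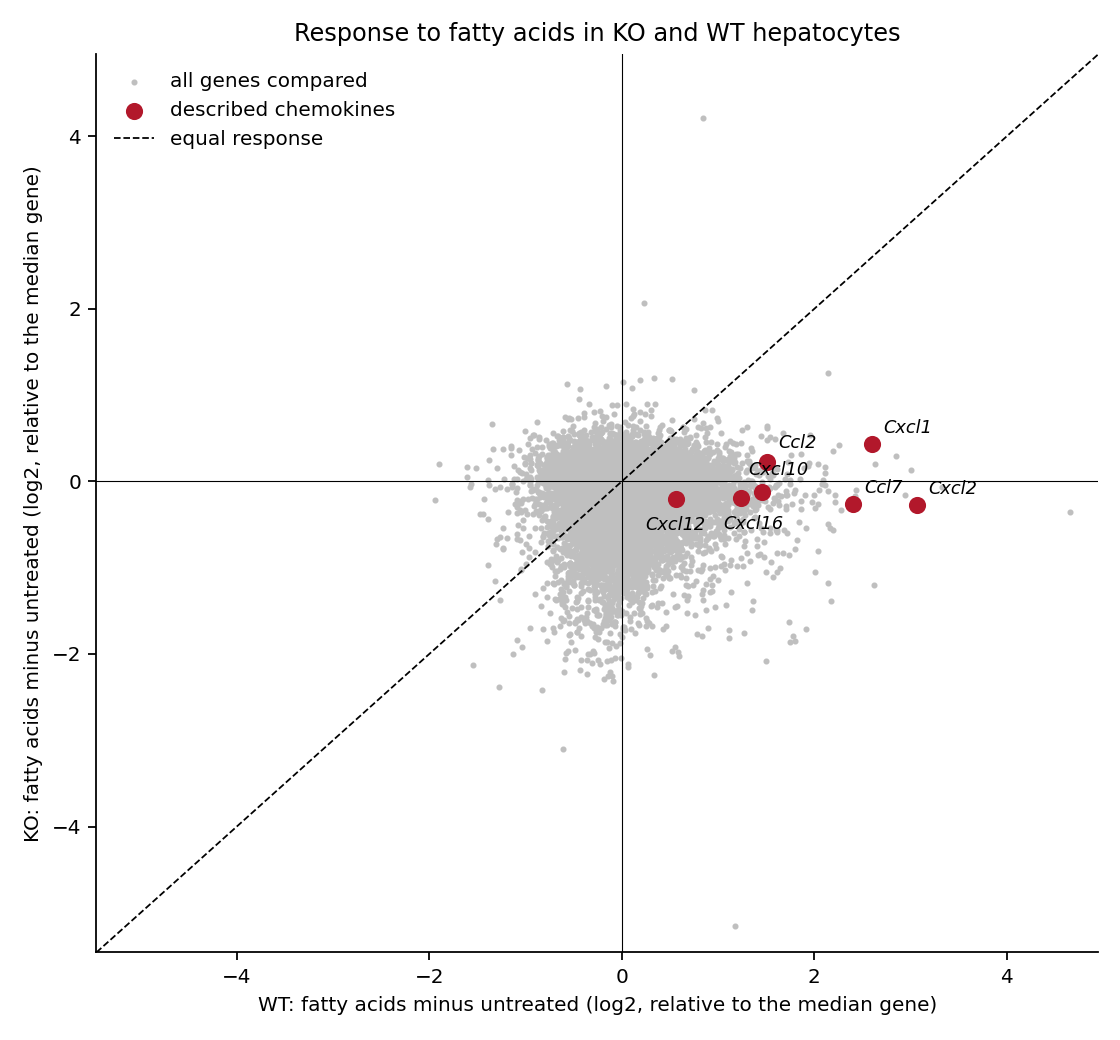
Response to fatty acids (log2, relative to the median gene) in WT on the horizontal axis and in KO on the vertical axis; each grey point is 1 of 11927 genes, red points are the 7 chemokines, and the dashed line marks equal responses. The chemokines lie to the right of 0 in WT, between 0.57 and 3.07, and close to 0 in KO.

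The make-up of the chemokine pool differed between genotypes. Over 37 chemokine genes, the summed level was 97.6 FPKM in KO and 1026 in WT cells given fatty acids, and 89.3 in KO and 242.9 in untreated WT cells. Cxcl1 alone made up 13.9% and 66.7% of that sum in KO and WT with fatty acids, and 9.67% and 55.5% in KO and WT untreated. The ratio of Cxcl1 to Cxcl2 was 24.3 in KO and 4.35 in WT cells with fatty acids, and 12.5 in KO and 6.23 in untreated WT cells, so Cxcl2 was the more depleted of the pair in KO. Cxcl10 led the 8 in both KO libraries and Cxcl1 led them in both WT libraries. In WT cells with fatty acids, Cxcl1 ranked 93 from the highest of all 11927 genes, against 4149 in KO cells with fatty acids.

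Cxcl1 and Cxcl2 are neighbours on chromosome 5, 10777 bases apart, at chr5:90891245-90893121 and chr5:90903899-90905938. Ccl2 and Ccl7 are neighbours on chromosome 11, 8259 bases apart, at chr11:82035577-82037452 and chr11:82045712-82047525. The next genes of these clusters did not share the level of the pairs. Cxcl3, another CXCR2 ligand of the chromosome 5 cluster, had 0 reads in KO and 126 in WT cells with fatty acids, and 0 in KO and 46 in untreated WT cells. With a floor of 3 reads in place of 0, Cxcl3 was 45.9-fold lower in KO with fatty acids (exact lower limit 36.8) and 15.0-fold lower without them (11.7). Its level stayed at or under 1.19 FPKM. Beyond Ccl7, the eosinophil attractant Ccl11 and the monocyte attractants Ccl12 and Ccl8 had 0 reads in all 4 libraries.

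The 3 ligands of CXCR3 did not run together. Cxcl9 had 39.4 FPKM in KO and 16.9 in WT cells given fatty acids, and 38.6 in KO and 12.3 in untreated WT cells. Cxcl11 had 165 reads in KO and 14 in WT cells with fatty acids, and 209 in KO and 3 in untreated WT cells. Both were thus higher in the KO libraries, where Cxcl10 was lower. Of the interferon response list, 3 of 13 genes compared were 2-fold or more higher in untreated KO and 2 were higher in KO with fatty acids, with none lower in either. Isg15, a ubiquitin-like interferon product, had 9.26 FPKM in KO and 2.24 in WT cells with fatty acids, and 9.74 in KO and 1.90 in untreated WT cells.

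Of 29 other chemokines, 12 reached 1 FPKM in at least 1 library. With fatty acids 6 of the 12 were 2-fold or more lower in KO and none higher, and in untreated cells 2 were lower and 2 higher. The first count was 4 lower and 1 higher without the correction for the median gene, and 3 and 1 after rescaling FPKM to an equal sum. Those lower were Cxcl3, Pf4, Ccl3, Ccl4, Ccl5 and Ccl9. Of these, Cxcl3 (1.19 FPKM), Pf4 (1.03) and Ccl5 (2.10) passed the filter through the WT library with fatty acids alone. Cxcl11, higher in untreated KO, passed it through that library alone (1.31 FPKM). The filter thus has a part in both counts, and nothing is read from them. Ccl5, an attractant of T cells and monocytes, had 0 reads in KO and 116 in WT cells with fatty acids, and 7 in KO and 28 in untreated WT cells.

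Genes of the NF-kappaB pathway were compared next, as subunits and feedback inhibitors of the factor named above. With fatty acids 9 of 19 were 2-fold or more lower in KO and none higher, with a median of −0.90, and in untreated cells 3 were lower and none higher. After rescaling to an equal sum, the counts with fatty acids were 3 lower and 1 higher, and the untreated median was 0.09, against −0.19 relative to the median gene. Tnfaip3, the feedback inhibitor A20, had 1.89 FPKM in KO and 16.1 in WT cells with fatty acids, and 2.23 in KO and 4.64 in untreated WT cells. Nfkbia, which codes for the inhibitor of NF-kappaB alpha, had 11.2 FPKM in KO and 56.2 in WT cells with fatty acids, and 8.68 in KO and 22.8 in untreated WT cells. The subunit Rela had 17.3 FPKM in KO and 19.2 in WT cells with fatty acids, and 20.1 in KO and 19.5 in untreated WT cells. Both inhibitors were highest in WT cells given fatty acids. Rela stayed within a narrow range, but the other subunit genes did not. In KO minus WT with fatty acids, Nfkb2 was at −1.57, Nfkb1 at −1.50, Relb at −1.38, Rel at −0.90 and Rela at −0.52. In untreated cells they were at −1.16, −0.51, −1.03, 0.28 and 0.04 in the same order.

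Among upstream cytokines and receptors, 5 of 24 were 2-fold or more lower in KO with fatty acids and 3 in untreated cells. None was higher by as much on log2(FPKM + 1) relative to the median gene, with medians of −0.26 and 0.22. In reads some passed 2-fold higher in KO. Among them were the receptor genes Il17rc with fatty acids (2.89, interval 2.63 to 3.18) and Tnfrsf1a untreated (2.12, 2.02 to 2.22). Il1rn, the antagonist of interleukin 1, had 2.86 FPKM in KO and 16.9 in WT cells with fatty acids, and 3.32 in KO and 11.8 in untreated WT cells. Il1b, which codes for interleukin 1 beta, had 0.574 FPKM in KO and 2.48 in WT cells with fatty acids, and 0.260 in KO and 2.03 in untreated WT cells. Of 9 genes of AU-rich mRNA decay, 3 were lower in KO with fatty acids and none reached 2-fold on log2(FPKM + 1) relative to the median gene in untreated cells. Zfp36, which binds AU-rich elements and speeds decay, had 3.75 FPKM in KO and 16.9 in WT cells with fatty acids, and 8.59 in KO and 3.85 in untreated WT cells. In untreated cells its KO minus WT value of 0.98 lay just short of that line, while its read ratio was 2.29 (interval 2.09 to 2.52). Its relative Zfp36l1 had 5.95 FPKM in KO and 44.6 in WT cells with fatty acids, and 25.2 in KO and 18.4 in untreated WT cells. Both genes were highest in the library where Cxcl1 and Cxcl2 were highest too. The part of mRNA decay in the chemokine levels was not tested.

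**Figure D4:**
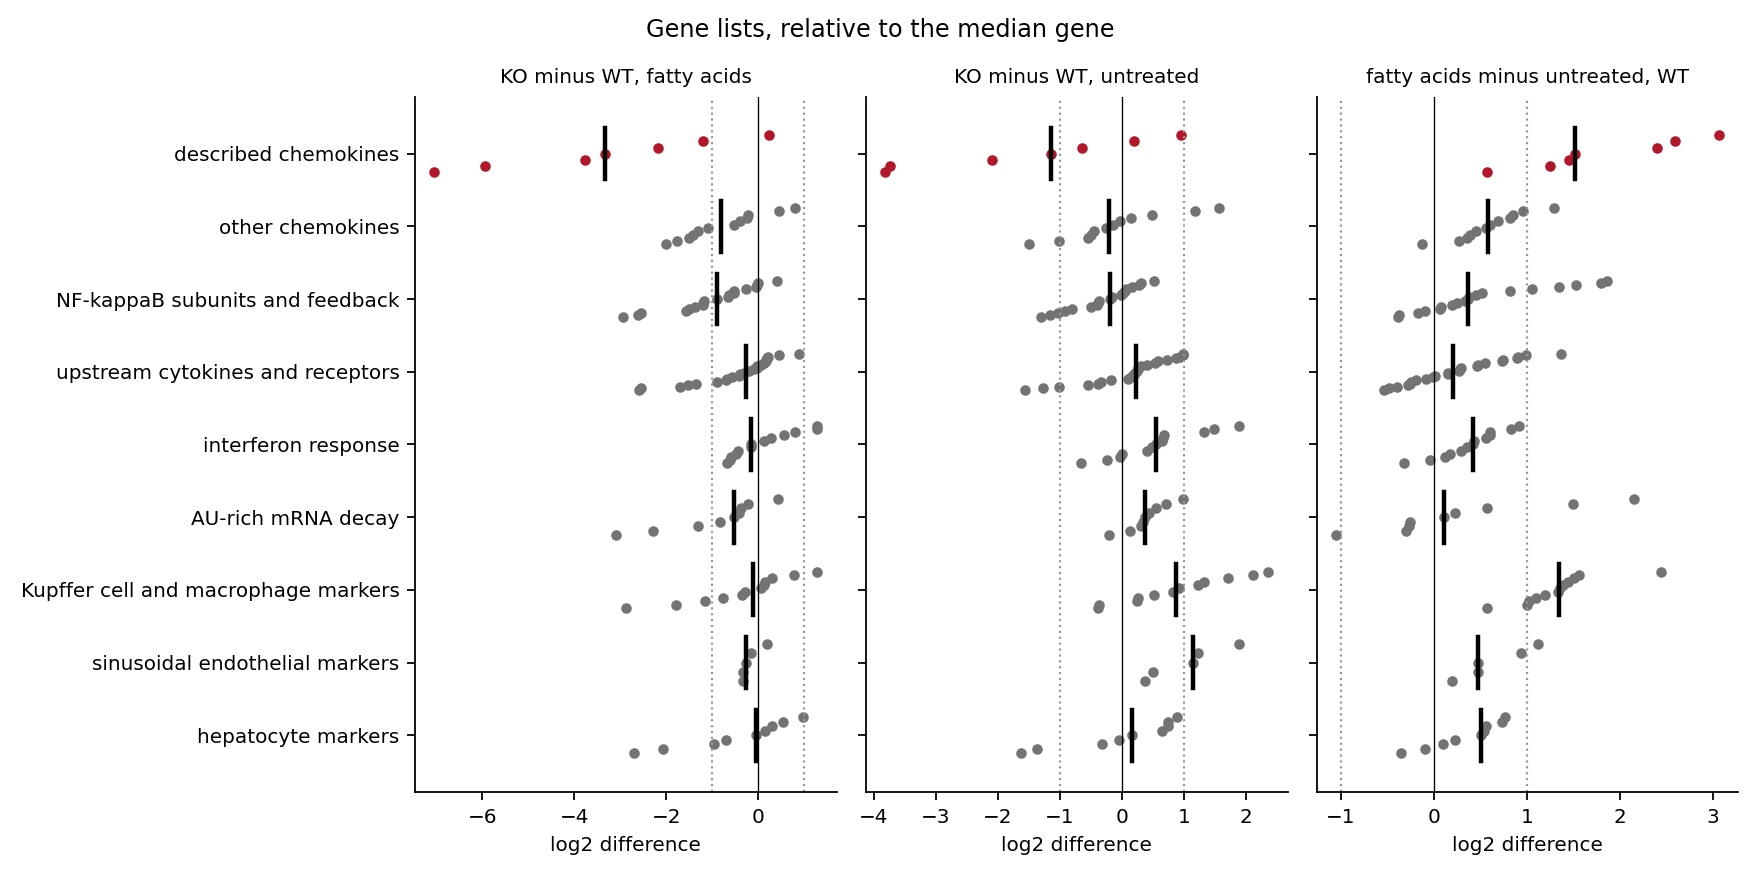
Differences of log2(FPKM + 1) relative to the median gene for 9 gene lists in 3 comparisons from 1 library per group, with 1 point per gene, bars at list medians and dotted lines at 2-fold. The chemokines have medians of −3.34 and −1.14 in KO minus WT with fatty acids and untreated, and macrophage markers reach a median of 1.35 in the WT response.

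Receptors of the chemokines were low throughout, with 1 of 23 reaching 1 FPKM. This was Cxcr4, the receptor of Cxcl12, at 2.74 FPKM in KO and 3.68 in WT cells with fatty acids, and 2.82 in KO and 2.82 in untreated WT cells. Cxcr2, the receptor of Cxcl1 and Cxcl2, had 81 reads in KO and 0 in WT cells with fatty acids, and 57 in KO and 0 in untreated WT cells. It was named after its values were seen. Of 10 genes compared that shed, clip or present chemokines, 1 was 2-fold or more higher in KO with fatty acids and 2 in untreated KO, with none lower. Sdc1, a heparan sulphate carrier on the cell surface, had 72.0 FPKM in KO and 17.2 in WT cells with fatty acids, and 62.4 in KO and 24.1 in untreated WT cells. Of 3 genes of leukocyte adhesion and growth compared, 2 were lower in KO with fatty acids and 1 in untreated KO. Icam1, the endothelial and hepatocyte ligand of leukocyte integrins, had 5.68 FPKM in KO and 43.5 in WT cells with fatty acids, and 4.44 in KO and 24.9 in untreated WT cells.

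Macrophage markers were higher with fatty acids in WT, as the chemokines were, and were divided between the genotypes. In fatty acids minus untreated, 11 of 12 markers compared were 2-fold or more higher in WT (7 without the correction for the median gene, 5 after rescaling to an equal sum) and none of 12 in KO. In KO minus WT, 5 of 12 were higher in untreated cells and none lower. With fatty acids 3 were lower and 1 higher, with a median of −0.12 that was 0.26 without the correction. Marco, a macrophage scavenger receptor, had 3.64 FPKM in KO and 25.3 in WT cells with fatty acids, and 3.45 in KO and 4.83 in untreated WT cells. Clec4f, specific to Kupffer cells in mice, had 7.82 FPKM in KO and 1.81 in WT cells with fatty acids, and 7.62 in KO and 0.677 in untreated WT cells. The summed markers were 312 and 334 FPKM in KO and WT with fatty acids. Cd14 (105 and 138), Lyz2 (89.4 and 88.1) and Cd68 (33.2 and 20.5) made up most of these sums. The sums therefore hide the opposite differences of markers such as Marco and Clec4f. The part of macrophages in the chemokine levels was not tested.

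Genes whose levels ran most like each chemokine over the 4 libraries were found by Euclidean distance on log2(FPKM + 1) relative to the median gene, among 10191 genes and as a description over 4 points. Each gene's own mean over the libraries was first taken off, so a small distance does not mean a like level. Adding 1 to FPKM flattens the course of low genes, so genes at a small distance can still differ in fold change. Among the nearest to Cxcl1 were Dusp6 (distance 1.16) and the interleukin 23 subunit Il23a (1.56). Il23a (1.28) and Dusp6 (1.45) were also nearest to Cxcl2. Dusp6 is the gene knocked out, so its low level in KO is set by the design. Any gene far lower in KO would lie near it, and nothing is read from its place here. Its response to fatty acids in WT was 1.17, against 2.60 for Cxcl1 and 3.07 for Cxcl2. Icam1 (0.34) and the stress-response gene Gadd45b (0.46) were nearest to Ccl2, and Gadd45b (0.35) was nearest to Ccl7. Cxcl10 lay nearest to the phosphodiesterase Pde4b (0.17), Cxcl16 to Alox5ap (0.02), which codes for an activator of leukotriene synthesis, and Cxcl12 to the guanylate-binding protein gene Gbp10 (0.03). Within the set, Ccl2 and Ccl7 were 0.77 apart, Cxcl1 and Cxcl2 0.80 apart, and Cxcl2 and Cxcl12 farthest apart at 6.25.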

How the data were processed

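Total RNA of the hepatocytes went into a stranded library kit, per the labels' protocols. Build mm10 and the tools StringTie 2.1.3b, HISAT2 2.1.0, Bowtie2, Trimmomatic 0.38 and FastQC 0.11.7 are named in the submitters' processing notes. How reads were counted, on which strand and against which annotation is not given in the sources used, so reads of overlapping and antisense genes may be mixed. The table the authors deposited holds TPM, FPKM and whole read counts, per the file headers, for 45777 genes in 4 libraries. Its deposited counts are unscaled, between 85423156 and 97364292 in sum. The deposited FPKM are scaled to length and library, and the deposited TPM to a fixed sum.

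The design assumed FPKM only, and FPKM stayed the basis because 1 library per group allows no count test. Genes that reached an FPKM of 1 in any library were compared on log2(FPKM + 1), relative to the median of those at 5 or more in all 4. Differences of low genes are understated on it. A 2-fold rule stood in place of a test. Ratios of read counts carry exact binomial 95% intervals, and where a library had 0 reads, 3 reads stood in as a floor.

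The 8 chemokines and the gene lists were chosen with earlier results of these data known. Besides the chemokines, the text names up to 4 genes of each list with the largest KO minus WT difference with fatty acids, other chemokines of at least 1 FPKM, and genes among the 3 nearest to each chemokine, not all of which are reported here. Alb, Rela, Nfkb1, Relb, Rel, Il17rc, Tnfrsf1a, Cd14, Lyz2, Cd68, Ly6g, Cxcr2, Ccl11, Ccl12 and Ccl8 were named after their values were seen. Alternatives were pseudocounts of 0.1 and 5, other filters and fold rules, no correction for the median gene, equal sums, quantile normalization, TMM scaling (edgeR 4.0.16) and DESeq2 1.42.0 size factors. Software was R 4.3.3 with limma 3.58.1 and Python 3.11.15 with pandas 2.3.3 and scipy 1.17.1.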

Additional observations from a re-analysis of the deposited data

Results flagged for a closer look

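For 5 chemokines the response to fatty acids had opposite signs in the KO and WT libraries, and the difference between the responses was not tested, since each rests on 1 library per group. On the log2 scale relative to the median gene, the KO response minus the WT response was −3.34 for Cxcl2, −2.67 for Ccl7, −1.58 for Cxcl10, −1.44 for Cxcl16 and −0.77 for Cxcl12. The KO responses of all 5 were close to 0, between −0.28 and −0.13, and each was at or above 0.00 under at least 1 other scaling. In reads, the KO interval of the fatty acid ratio included 1 for Cxcl2, Ccl7, Cxcl10 and Cxcl16, and excluded it for Cxcl12 (0.798 to 0.983).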

How the results depend on the processing

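Apart from Cxcl12, given below, the counts of chemokines past 2-fold kept their direction under the pseudocounts, filters, scalings and fold rules tried. They also stayed within 1.5 times their value, except under a 3-fold rule. There 3 and not 6 of 7 were past it in fatty acids minus untreated in WT. Likewise 3 and not 6 were past it in KO response minus WT response, where Cxcl10 fell just short. The fold rules were added after seeing the data. No direction of a called value reversed. KO minus WT with fatty acids ran from −8.50 to −5.17 for Cxcl2 and from −6.05 to −5.17 for Cxcl1. Untreated Cxcl12 ran from 0.33 to 2.05 and passed 2-fold with a pseudocount of 0.1, equal sums, TMM scaling, DESeq2 size factors and CPM of library totals. The last of these was chosen after seeing the data, and there Cxcl12 with fatty acids was 1.02. The small KO responses of Cxcl2, Ccl7, Cxcl10, Cxcl12 and Cxcl16 reached 0.00, 0.01, 0.05, 0.09 and 0.01 at their highest. No paired analysis was possible because each group holds 1 library, and for the same reason leaving out replicates could not be run. Depth limits Cxcl5 (10 reads in 1 library), Cxcl2 and Ccl7 in the KO libraries (68 to 87 reads).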
